A study of Mus musculus with 6 samples.

Results

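The genes of the NF-κB subunits and of their feedback inhibitors were examined in ATAC-seq peak lists from mouse peripheral blood. The 10 genes were Nfkb1, Nfkb2, Rel, Rela and Relb for the subunits, and Nfkbia, Nfkbie, Nfkbiz, Tnfaip3 and Bcl3 for the inhibitors, out of 77949 annotated gene names on the main chromosomes. A peak was assigned to a gene when its summit, the position of its highest signal, lay in the gene body or within 3 kb of an annotated transcription start. Peaks of the 6 lists that shared at least 1 bp were merged into regions, and 30 of 62876 regions belonged to the 10 genes, 19 to subunits and 11 to inhibitors. In the following text the regions of a gene are numbered along it from 5′ to 3′, so that Nfkbia 2 is the second region of Nfkbia.

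NF-κB is a family of transcription factors that act as dimers and are held inactive in the cytoplasm by IκB proteins. Signals from cytokine, antigen and pattern-recognition receptors release the dimers, which enter the nucleus and bind κB sites in genes of inflammation, survival and lymphocyte activation. Among the genes they switch on are their own inhibitors, which limit the response in time, and several of their own subunits. In blood, the pathway works in lymphocytes as well as in neutrophils and monocytes.

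ATAC-seq measures open chromatin through the insertion of sequencing adapters by the Tn5 transposase. The 6 libraries were made from white blood cells of peripheral blood left after red cell lysis, with 3 libraries of controls and 3 of animals undergoing high-altitude de-acclimatization, abbreviated HADA. Per the study the animals were male C57BL/6j mice, the controls stayed at normal oxygen, and the HADA animals returned to it after weeks in a hypobaric chamber simulating high altitude. The cells were not sorted. The labels and methods name leukocytes and the study's results text mononuclear cells, which would hold few neutrophils, and the time of blood sampling for these libraries is not given in the sources used here. The labels do not say whether replicates were separate animals, so the tests measure the spread between these libraries, which may be technical.

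The libraries held between 34045 and 45799 peaks, each list called by itself, and their genome-wide background pileups were 1.69 to 2.05 in the control and 1.99 to 2.34 in the HADA libraries. The height of a peak is given as its summit pileup, the peak caller's count of fragments or extended read ends over the summit. Which of these was counted depends on options that are not given. The pileup was solved from the fold and p-value that the caller wrote. A relative height is the pileup divided by the median pileup of the library over the 23970 regions with a peak in all 6 libraries, called shared regions. That median ran from 49 to 58 in the control and from 77 to 92 in the HADA libraries. Over the background, it was higher in HADA by 0.379 on the log2 scale, and all differences in height are relative to this shift. Control 3 stood apart with the highest neutrophil and the lowest B cell marker signal. Called differences of the 10 genes and counts of calls in the other pathway lists are therefore also given without it. Differences of single genes outside the 10 are given with all 6 libraries only. Where any 1 library moved the difference of a shared region of the 10 genes by over 1.5 times, its range over leaving out each library in turn is given. A shared region was called when limma, run on log2 relative heights over all 23970 shared regions, gave a Benjamini-Hochberg adjusted p under 0.05. As an alternative, the folds of each library were ranked and the ranks turned into values of a standard normal distribution. Differences on ranks of the fold are in those units and not on the log2 scale.

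The sequences below show where the κB consensus, a motif of 10 letters searched on both strands, lay within 100 bp of the tallest summit of a region. They are on the plus strand of GRCm39, with the match in capitals. The first 4 belong to the tallest region near a start of their gene or to a called region.
Nfkb1 1, chr3:135397258-135397287: cttcctggctGGAAATTCCCactgacgtcg
Rel 1, chr11:23721042-23721071: gggagggggGGGGATTTCCCgctgcttacg
Tnfaip3 1, chr10:18891151-18891180: ttgccaacagGGGGATTTCCgatggaaatt
Nfkbia 2, chr12:55535606-55535635: gcttcctctcGGGGTGTCCCcgcacaagct
Rel 3, chr11:23704408-23704437: atgatgatgGGGGAACTCCCctaccaccat
Tnfaip3 2, chr10:18885169-18885198: agtaacatgtGGAATTCCCCagtgcgaaga
The last 2 sites were added after their values were seen, because they complete the set of member regions with a match. The capitals of Rel 1 and of Rel 3 each hold 2 overlapping matches. The sites of Nfkb1 1, Rel 1 and Tnfaip3 1 lie in annotated untranslated sequence near a transcription start, and the other sites lie in introns.

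In total, 6 of 30 member regions (20%, exact binomial 95% interval 7.71% to 38.6%) held the κB consensus, against 4.02% of all regions with the same window. They were 3 of 19 subunit and 3 of 11 inhibitor regions. Of the 17 shared member regions 4 had a match (23.5%), and of all shared regions 3.94% had one. Motifs of other factors of blood cells were searched after the κB result was seen. TGANTCA, bound by AP-1, was in 0 of 30 member regions and in 5.50% of all regions. TTGCNNCAA, a pattern of 9 letters searched for C/EBP factors, was in 0 of 30 and in 1.38% of all regions. C/EBP sites with another spacing cannot match that pattern and were not searched. Its counts therefore do not show whether C/EBP sites were present or absent. GAGGAAGT, bound by PU.1, was in 2 of 30, at Relb 1 and Nfkb1 8, and in 4.19% of all regions. These matches describe sequence and do not show binding. The interval covers counting error only and treats the regions as independent, although several share a gene, 10 of them Nfkb1.

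All 10 genes had a peak in every library. Of the subunit regions, control 1, 2 and 3 had a peak at 15, 10 and 11, and HADA 1, 2 and 3 at 19, 16 and 14. Inhibitor regions with a peak numbered 11, 10 and 9 in the control and 9, 10 and 10 in the HADA libraries. Among the subunit regions 8 of 19 had a peak in more HADA than control libraries and 1 of 19 in more control libraries, while 35.5% and 22.7% of all regions did so. Among the inhibitor regions the counts were 1 and 2 of 11. Peaks in all 3 HADA and no control library occurred at 1 member region, Nfkb1 7, with 7.01% of all regions in that class, and peaks in all control and no HADA library at 0, with 1.88% of all regions.

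**Figure D1:**
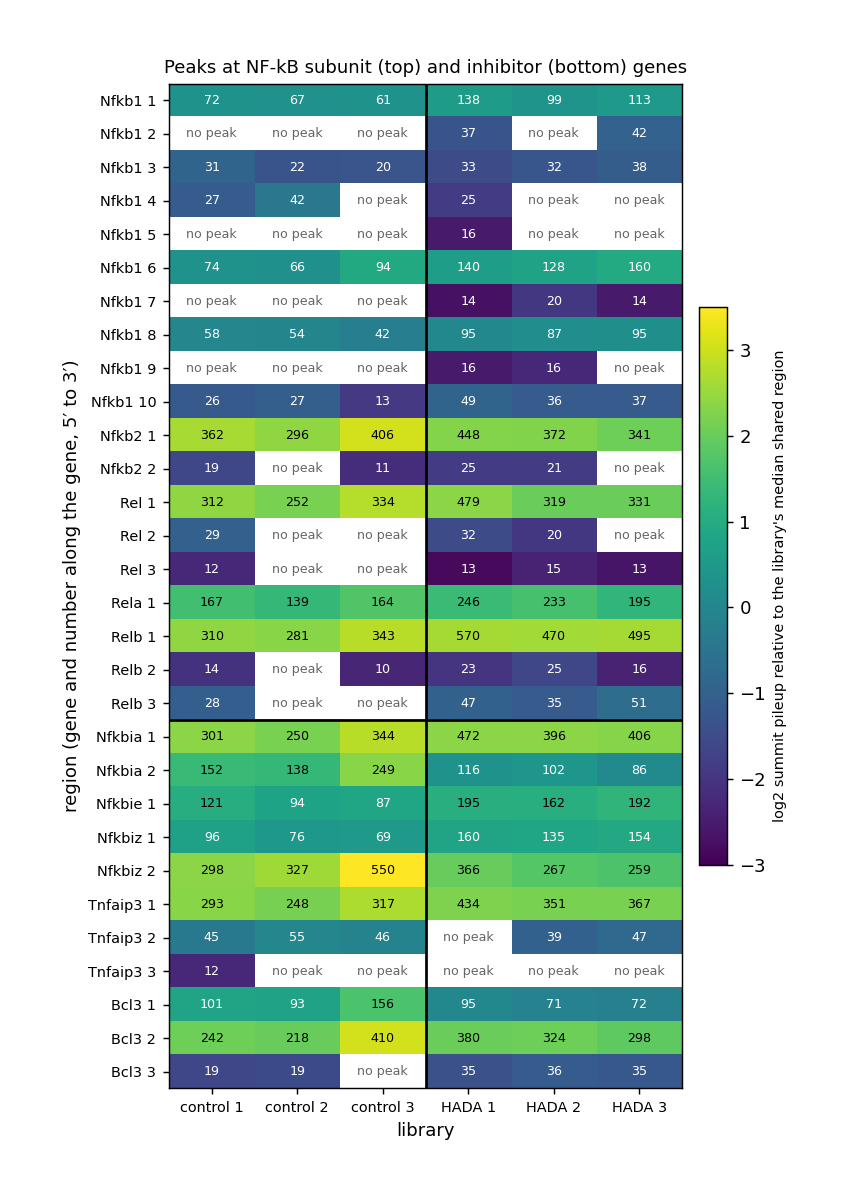
Summit pileups of the 30 regions of the 10 genes in each library, with regions in rows numbered 5′ to 3′ along each gene and libraries in columns. Numbers are pileups, colours are log2 relative heights and white cells have no called peak. Nfkb1 7 had peaks of 14, 20 and 14 in HADA only, and Tnfaip3 2 lacked a peak in HADA 1 alone, while the tall start regions such as Relb 1 were present throughout.

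The subunit genes carried no called change among their 9 shared regions. limma called 0 higher and 0 lower, and at an unadjusted p under 0.05 the counts were 0 and 1. Over all shared regions 17.9% were called higher and 24.1% lower in HADA. The differences between HADA and control at the 9 regions ran from −0.50 to 0.32 on the log2 scale with a median of 0.09, beside −0.04 over all shared regions. This median was −0.0048 without control 3, 0.47 after division by the background and −0.0544 on ranks of the fold. In 2 of 9 regions the heights in HADA exceeded every control library and in 1 of 9 they lay below every control library, against 29.3% and 31.2% of all shared regions. Of the 9 differences 5 were positive after centring on the median shared region, 8 after division by the background and 3 on ranks of the fold. Division by the background made 1 call of a higher region (Nfkb1 10, 0.70, limma adjusted p = 0.0423), while 31% of all shared regions were called higher on that scale.

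Nfkb1 encodes a precursor that is processed into a DNA-binding subunit without an activation domain of its own. It is the longest of the genes, at 107 kb on the minus strand of chromosome 3, and had 10 regions. Its start region, chr3:135396177-135397704, had pileups of 72, 67 and 61 in the control and 138, 99 and 113 in the HADA libraries. On the relative scale this was 1.23 ± 0.0145 in controls and 1.39 ± 0.107 in HADA (SD, n = 3 each), the lowest start region of the 10 genes. The groups did not overlap, but the log2 difference of 0.17 ± 0.16 (SE) did not pass the test (limma adjusted p = 0.397). The κB match there sat 3 bp from the tallest summit.

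The 4 other shared regions of Nfkb1 lay within the gene. The tallest was Nfkb1 6 in an intron at chr3:135333753-135335217, with pileups of 74, 66 and 94 in controls and 140, 128 and 160 in HADA libraries and a log2 difference of 0.26 (limma adjusted p = 0.385), from 0.13 without control 2 to 0.42 without control 3. Nfkb1 8, chr3:135312963-135314468, at an internal start, had 58, 54 and 42 against 95, 87 and 95 and a log2 difference of 0.23 (limma adjusted p = 0.269), without overlap between the groups on the relative scale. With a library left out it ran from 0.11 without control 3 to 0.29. Nfkb1 10 had the widest positive difference of the subunits, 0.32 on the log2 scale (limma adjusted p = 0.327), from pileups of 26, 27 and 13 against 49, 36 and 37. With a library left out it ran from −0.0048 without control 3, whose pileup was the low one, to 0.49 without control 2. Nfkb1 3 had 31, 22 and 20 against 33, 32 and 38 and a log2 difference of −0.11, from −0.22 without control 3 to 0.0396 without control 1.

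The 5 Nfkb1 regions that were not shared were low. Nfkb1 7, an intron region at chr3:135322244-135323097, had pileups of 14, 20 and 14 in the HADA libraries and no peak in control libraries. Scaled by background, the HADA heights correspond to pileups of 10.1 to 17.0 in control 1, 12.3 to 20.6 in control 2 and 10.9 to 18.4 in control 3. Scaled by the median shared region, they correspond to 8.83 to 15.1, 8.37 to 14.3 and 7.46 to 12.7. The lowest called pileups of these libraries were 7, 8 and 8. Nfkb1 2, 5 and 9 had peaks in 2, 1 and 2 HADA libraries and in no control library, and Nfkb1 4 had peaks in control 1, control 2 and HADA 1.

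Nfkb2 encodes the precursor of the non-canonical pathway, which is processed to the partner of RelB. Its start region, chr19:46292507-46294526, had pileups of 362, 296 and 406 in controls and 448, 372 and 341 in HADA libraries. The relative heights were 6.24, 5.38 and 8.29 in controls and 4.87, 4.83 and 4.21 in HADA, without overlap. The log2 difference of −0.50 ± 0.20 (SE, 95% interval −0.97 to −0.03) was the widest of any subunit region and missed the threshold (limma adjusted p = 0.0814). It passed with an intensity trend in the variance (adjusted p = 0.0485) and without control 2 (adjusted p = 0.0457, log2 difference −0.63). After division by the background the difference was −0.12 (adjusted p = 0.756), on ranks of the fold −0.34 (adjusted p = 0.169), and over all alternatives the adjusted p ran from 0.0457 to 0.756. The second Nfkb2 region, which the neighbouring gene Psd also covers, had pileups of 11 to 25 in 4 libraries.

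Rel encodes c-Rel, a subunit most abundant in lymphoid cells. Its start region, chr11:23719795-23721828, had pileups of 312, 252 and 334 in controls and 479, 319 and 331 in HADA libraries, with relative heights of 5.59 ± 1.13 and 4.48 ± 0.631 (SD, n = 3 each). The libraries overlapped and the log2 difference was −0.31 ± 0.21 (SE, limma adjusted p = 0.252). Rel 2 had pileups of 29 in control 1, 32 in HADA 1 and 20 in HADA 2. Rel 3, chr11:23704208-23704836, had 12 in control 1 and 13, 15 and 13 in the HADA libraries.

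Rela encodes p65, the main activating subunit of the canonical pathway, and had a single region, chr19:5686871-5688151. Its pileups were 167, 139 and 164 in controls and 246, 233 and 195 in HADA libraries. The relative heights overlapped at 2.92 ± 0.411 and 2.70 ± 0.310 (SD, n = 3 each), and the log2 difference was −0.11 (95% interval −0.53 to 0.32), from −0.20 without control 2 to −0.0015 without HADA 3.

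Relb encodes the activating subunit of the non-canonical pathway. Its start region, chr7:19362281-19363521, had pileups of 310, 281 and 343 in controls and 570, 470 and 495 in HADA libraries, and relative heights of 5.82 ± 1.03 and 6.14 ± 0.0510 (SD, n = 3 each). The log2 difference was 0.09 (95% interval −0.32 to 0.51, limma adjusted p = 0.703), from 0.0080 without control 2 to 0.18 without control 3. Both other regions of Relb lie in introns and had peaks in all HADA libraries but not in all controls. At Relb 3 the pileups were 28 in control 1 and 47, 35 and 51 in the HADA libraries, and at Relb 2 they were 14 in control 1, 10 in control 3 and 23, 25 and 16 in the HADA libraries.

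The inhibitor genes had 3 regions called lower in HADA, at Nfkbia, Nfkbiz and Bcl3, of their 8 shared regions (37.5%, beside 24.1% of all shared regions), and 0 called higher, also at an unadjusted p under 0.05. The differences ran from −1.41 to 0.28 on the log2 scale with a median of −0.29. This median was −0.0899 without control 3, 0.0935 after division by the background and 0.0405 on ranks of the fold. In 3 of 8 regions the heights in HADA lay below every control library and in 2 of 8 above, against 31.2% and 29.3% of all shared regions. The sign of Nfkbia 1, Tnfaip3 1 and Bcl3 2 depended on the scaling: 6 of 8 inhibitor differences were negative after centring on the median shared region, 3 of 8 after division by the background and 4 of 8 on ranks of the fold. The 3 calls held without control 3, while division by the background kept those of Nfkbia and Bcl3 and ranks of the fold that of Nfkbia. Of all shared regions, 18.3% were called lower after division by the background and 4.79% on ranks of the fold.

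Nfkbia encodes IκBα, which binds NF-κB dimers in the cytoplasm and is resynthesized under their control. Its start region, chr12:55538425-55539656, had pileups of 301, 250 and 344 in controls and 472, 396 and 406 in HADA libraries, with overlapping relative heights of 5.59 ± 1.28 and 5.10 ± 0.0720 (SD, n = 3 each). The log2 difference of −0.11 did not pass the test (limma adjusted p = 0.683). On ranks of the fold, in their own units, the difference was 0.59 (adjusted p = 0.036). With a library left out the log2 difference ran from −0.24 without control 2 to 0.018 without control 3.

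Nfkbia 2 lies at the 3′ end of the gene, chr12:55535403-55536047, in an intron of the longest annotated transcript and past the 3′ ends of the others. Its pileups were 152, 138 and 249 in controls and 116, 102 and 86 in HADA libraries, so it was lower in every HADA library even before scaling. The relative heights were 2.62, 2.51 and 5.08 in controls and 1.26, 1.32 and 1.06 in HADA. It fell by 1.41 ± 0.29 (SE) on the log2 scale (limma adjusted p = 0.0117, 95% interval −2.07 to −0.75). Without control 3 the log2 difference was −1.13. The called peak also spanned less sequence in HADA, with widths of 381, 376 and 320 bp against 615, 522 and 645 bp in control. The local background pileup overlapped, at 39.8 to 58.4 in controls and 44.2 to 50.4 in HADA, and the fold over it was 3.23, 3.41 and 4.21 in controls and 2.28, 2.23 and 1.93 in HADA.

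A sequence of Nfkbia 2 is shown because this was the largest change among the 17 shared member regions, with the κB match in capitals. It surrounds the tallest summit, that of control 3 at position 55535699. The summits of the other 5 libraries lay at 55535855 to 55535910, outside the printed sequence, and the match lay outside the called peaks of the HADA libraries.
Nfkbia 2, chr12:55535611-55535758, plus strand: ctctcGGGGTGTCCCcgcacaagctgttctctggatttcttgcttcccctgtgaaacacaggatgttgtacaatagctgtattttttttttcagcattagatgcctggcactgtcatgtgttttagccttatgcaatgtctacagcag

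Nfkbie encodes IκBε, another cytoplasmic inhibitor. Its region over the start, chr17:45866261-45869378, had pileups of 121, 94 and 87 in controls and 195, 162 and 192 in HADA libraries. The relative heights were 1.86 ± 0.201 and 2.20 ± 0.15 (SD, n = 3 each) and did not overlap. The log2 difference of 0.25 ± 0.17 (SE) did not pass the test (limma adjusted p = 0.258).

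Nfkbiz encodes IκBζ, a nuclear IκB protein that both represses and helps to activate target genes. It had 2 start regions on the minus strand of chromosome 16. Nfkbiz 1 at the upstream start, chr16:55658670-55659800, had pileups of 96, 76 and 69 in controls and 160, 135 and 154 in HADA libraries, with a log2 difference of 0.28 ± 0.16 (SE, limma adjusted p = 0.190). Nfkbiz 2 at the internal starts, chr16:55640735-55642936, had 298, 327 and 550 in controls and 366, 267 and 259 in HADA libraries.

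On the relative scale Nfkbiz 2 had 5.14, 5.95 and 11.2 in controls and 3.98, 3.47 and 3.20 in HADA. Its mean was the highest of the 10 start regions in control, carried by control 3, and ranked 7 of 10 in HADA. In control 1 the start regions of Nfkb2, Rel, Relb and Nfkbia were taller. It fell by 0.99 ± 0.29 (SE) on the log2 scale (limma adjusted p = 0.0311). Without control 3 the log2 difference was −0.70 (adjusted p = 0.0207). Its called peaks were wider in HADA, at 2196, 2181 and 2186 bp against 1732, 1399 and 1425 bp in control. The summit of control 1 lay at 55642769, and those of the other libraries at 55642322 to 55642365. The fold over local background overlapped between groups, at 7.04, 7.90 and 7.98 in controls and 7.71, 7.38 and 7.51 in HADA, and on ranks of the fold the difference was −0.10 (adjusted p = 0.663). The call was also lost without any 1 of the HADA libraries (adjusted p = 0.0626 to 0.0971). The log2 difference was then −1.07 without HADA 1, −0.96 without HADA 2 and −0.89 without HADA 3.

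Tnfaip3 encodes A20, an enzyme that edits ubiquitin on signalling proteins upstream of NF-κB. Its start region, chr10:18890256-18891602, had pileups of 293, 248 and 317 in controls and 434, 351 and 367 in HADA libraries, and overlapping relative heights of 5.34 ± 1.01 and 4.60 ± 0.101 (SD, n = 3 each). The log2 difference was −0.20 (95% interval −0.63 to 0.23), from −0.31 without control 2 to −0.10 without control 3. Tnfaip3 2, an intron region with a κB match 4 bp from the summit, had pileups of 45, 55 and 46 in controls and 39 and 47 in HADA 2 and 3, with no peak in HADA 1. Tnfaip3 3 had a peak of 12 in control 1 only.

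Bcl3 encodes a nuclear IκB protein that acts with the subunits made from Nfkb1 and Nfkb2. Bcl3 1 covers the upstream starts on the minus strand of chromosome 7, chr7:19556440-19558554, with pileups of 101, 93 and 156 in controls and 95, 71 and 72 in HADA libraries. The relative heights were 1.74, 1.69 and 3.18 in controls and 1.03, 0.922 and 0.889 in HADA, without overlap. It fell by 1.16 ± 0.26 (SE) on the log2 scale (limma adjusted p = 0.0145), and without control 3 the log2 difference was −0.91. Without HADA 2 the log2 difference was −1.12 and the adjusted p was 0.057.

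The region held 1 peak in each control library and in HADA 3, but 2 peaks in HADA 1 and HADA 2, where the taller had its summit about the downstream starts. With only the upstream peak of each library, a choice made after the values were seen, the HADA pileups were 92, 63 and 72. The relative heights were then 2.21 ± 0.848 in controls and 0.902 ± 0.0917 in HADA (SD, n = 3 each). The sequence around the upstream summit of control 3, the tallest, is shown because this is the other called region outside untranslated sequence, and it has no κB match. The upstream summits lay between 19557659 and 19558105 over the libraries, that of HADA 2 being the only other inside the printed sequence.
Bcl3 1, chr7:19557950-19558069, plus strand: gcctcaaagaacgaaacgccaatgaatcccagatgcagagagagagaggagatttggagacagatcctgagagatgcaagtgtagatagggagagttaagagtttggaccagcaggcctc

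Bcl3 2, the tallest region within 3 kb of a start of this gene, lies inside it at chr7:19549906-19552055. It had pileups of 242, 218 and 410 in controls and 380, 324 and 298 in HADA libraries, and a log2 difference of −0.37 ± 0.29 (SE, limma adjusted p = 0.327). With a library left out it ran from −0.56 without control 2 to −0.0757 without control 3. Bcl3 3, downstream of the gene, had low peaks of 19 and 19 in control 1 and 2 and of 35, 36 and 35 in HADA.

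**Figure D2:**
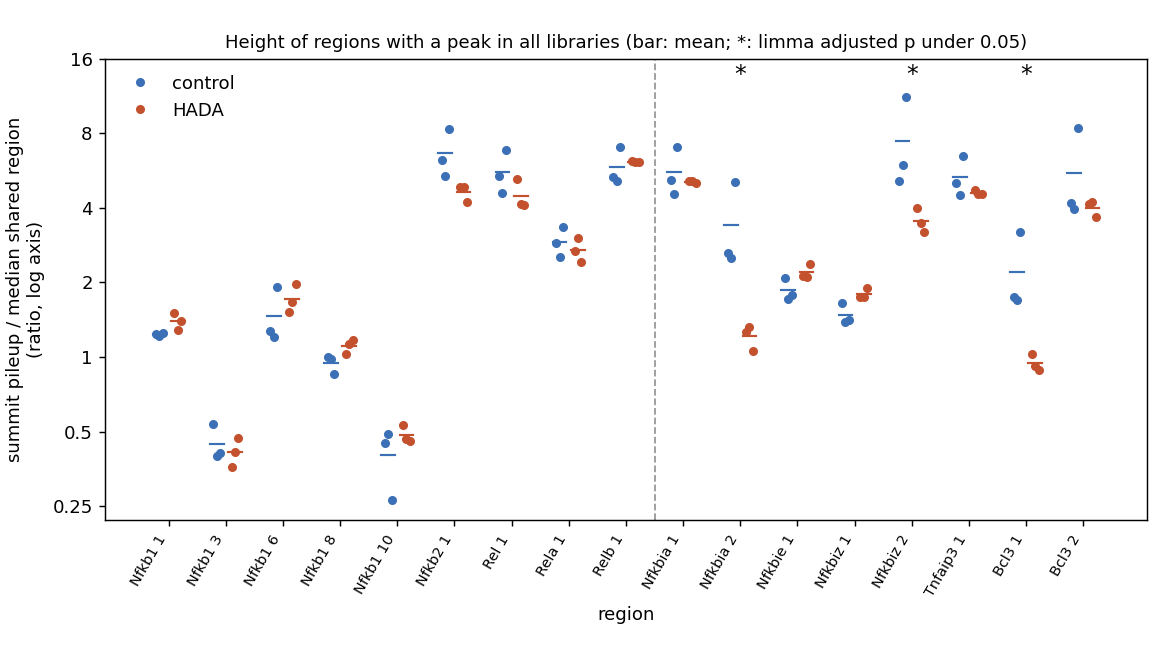
Relative height, the summit pileup over the library's median shared region on a log axis, of the 17 shared member regions, subunits left and inhibitors right of the dashed line. Points are libraries, bars are group means and stars mark a limma adjusted p under 0.05. Nfkbia 2, Nfkbiz 2 and Bcl3 1 carry the 3 stars, and their HADA libraries lie below all controls.

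The 3 called regions were also set against their own gene. The pileup of each was divided by that of the other shared region of its gene in the same library, which needs no scaling between libraries. The regions were chosen because they were called, after the values were seen, so the ratios are a description without a test. Nfkbia 2 over Nfkbia 1 was 0.505, 0.552 and 0.724 in controls and 0.246, 0.258 and 0.212 in HADA. Nfkbiz 2 over Nfkbiz 1 was 3.10, 4.30 and 7.97 in controls and 2.29, 1.98 and 1.68 in HADA. Bcl3 1 over Bcl3 2 was 0.417, 0.427 and 0.380 in controls and 0.250, 0.219 and 0.242 in HADA. In all 3 genes the groups did not overlap. For Bcl3 the control 3 ratio lay beside those of the other controls, although its heights did not.

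**Figure D3:**
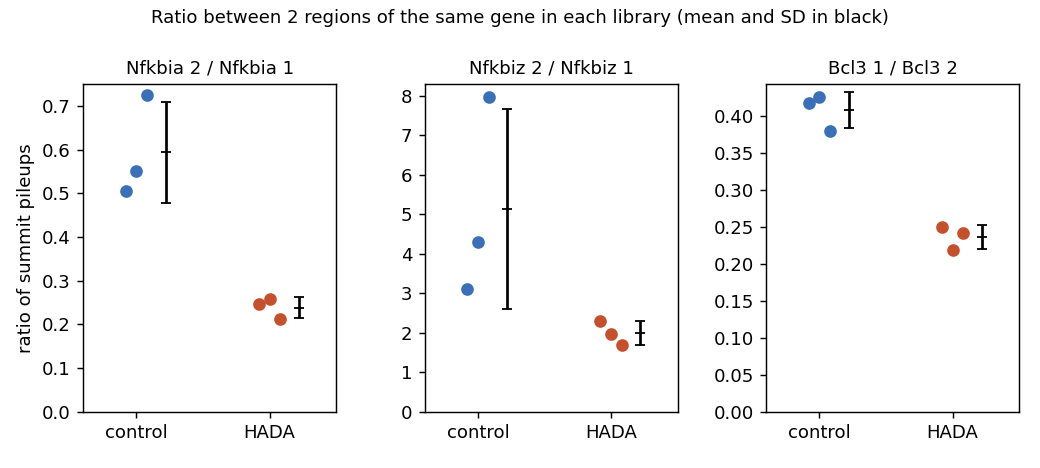
Ratio of the summit pileups of 2 regions of the same gene in each library, for Nfkbia, Nfkbiz and Bcl3. Coloured points are libraries and black marks are the mean and SD of 3. Mean ratios were 0.594 in controls and 0.238 in HADA for Nfkbia, 5.13 and 1.98 for Nfkbiz, and 0.408 and 0.237 for Bcl3.

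Subunits and inhibitors were next compared with each other at the tallest region within 3 kb of a start of each gene. In control libraries the median relative height was 5.34, 4.58 and 6.82 for the subunits and 5.05, 4.51 and 7.02 for the inhibitors. In HADA libraries it was 4.87, 4.14 and 4.09 for the subunits and 4.13, 4.21 and 3.68 for the inhibitors. The ratio of inhibitors to subunits was 0.945, 0.984 and 1.03 in controls and 0.848, 1.02 and 0.900 in HADA, and the groups overlapped.

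The order of the start regions had a tall and a low part. In control, Nfkbiz (7.44 ± 3.31), Nfkb2 (6.64 ± 1.49), Relb, Rel, Nfkbia, Bcl3 and Tnfaip3 (5.34 ± 1.01) followed each other with overlapping libraries (relative height, mean ± SD, n = 3). Rela, Nfkbie and Nfkb1 came below, each apart from the next. In HADA, Relb led at 6.14 ± 0.0510, apart from Nfkbia at 5.10 ± 0.0720, which lay apart from Nfkb2 at 4.64 ± 0.370. Nfkb2, Tnfaip3, Rel, Bcl3 and Nfkbiz overlapped their neighbours in the order, and the last 3 places were the same genes as in control. Of the 10 start regions, 1 was called, that of Nfkbiz, while 42% of all shared regions were called in either direction.

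Summed over all its regions, a library without a peak adding 0, the relative height of the inhibitors was 29.0, 27.6 and 45.5 in controls and 24.5, 24.5 and 23.7 in HADA, without overlap. For the subunits it was 26.6, 22.7 and 30.6 in controls and 26.6, 25.0 and 24.0 in HADA, with overlap. Control 3 had the highest sum in both sets. Divided by the background instead, the inhibitor sums overlapped, at 739 to 1218 in control and 843 to 963 in HADA.

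Other genes of the pathway were read in the same fit, from lists chosen with results of these data known. Of 12 further IκB and feedback genes, 4 of 21 shared regions were called higher (19.0%, beside 17.9% of all shared regions) and 2 lower (9.52%, beside 24.1%). Without control 3 there were 2 higher and 2 lower calls (9.52% each), beside 4810 and 5907 of 27407 shared regions. With all libraries, the smallest p at a start region was that of Nfkbid, which encodes another nuclear IκB protein. Its relative heights were 5.71, 5.15 and 9.41 in controls and 3.30, 2.25 and 2.16 in HADA. It fell by 1.37 ± 0.28 (SE) on the log2 scale (limma adjusted p = 0.0118), in a region that also covers the start of Hcst. Tax1bp1, a partner of A20, had a log2 difference of −0.44 (limma adjusted p = 0.174). Otulin, which removes linear ubiquitin, had 0.24 (limma adjusted p = 0.320).

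Of 18 kinases and adaptors, 6 of 30 shared regions (20%) were called higher and 3 (10%) lower, beside 17.9% and 24.1% of all shared regions. Without control 3 the calls were 4 higher (13.3%) and 3 lower (10%). With all libraries, after division by the background, the calls were 8 (26.7%) and 0, beside 31% and 18.3% of all shared regions on that scale. Ranks of the fold gave 3 higher (10%) and 1 lower (3.33%), beside 6.57% and 4.79%. Map3k7, the TAK1 kinase, rose by 0.59 (limma adjusted p = 0.0372), and its partner Tab1 by 0.53 (limma adjusted p = 0.0339). The kinases Chuk and Ikbkb, which phosphorylate IκB, both differed by −0.03 on the log2 scale and were not called.

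Of 18 target genes, 13 of 30 shared regions were called lower (43.3%, beside 24.1% of all shared regions) and 1 higher (3.33%, beside 17.9%). Without control 3 they stayed at 13 lower and 1 higher. With all libraries, the counts were 10 lower and 6 higher after division by the background, where all shared regions had 18.3% and 31%. On ranks of the fold they were 1 lower and 2 higher, where all shared regions had 4.79% and 6.57%. Il1b, the cytokine IL-1β, had relative heights of 4.72, 4.84 and 11.3 in controls and 2.95, 1.79 and 1.86 in HADA and fell by 1.57 (limma adjusted p = 0.0156). Cxcl2, a chemokine for neutrophils, had 2.16, 2.11 and 5.51 against 1.17, 0.558 and 0.654 and fell by 1.96 (limma adjusted p = 0.0132). Plek, a substrate of protein kinase C in leukocytes and platelets, had 2.91, 3.16 and 5.37 against 1.79, 1.34 and 1.46 and fell by 1.27 (limma adjusted p = 0.0118). Control 3 was the highest library at all 3 genes. Tnf and Icam1, both classical targets, differed by 0.0068 and −0.0024 on the log2 scale and were not called.

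Markers of several cell types in blood differed between the groups on the relative scale. Beside the counts below, 17.9% of all shared regions were called higher and 24.1% lower. For neutrophil markers 7 of 8 shared regions were called lower in HADA and 0 higher, with summed relative heights of 15.0, 11.7 and 32.0 in controls and 7.7, 5.7 and 4.3 in HADA. For monocyte markers 5 of 7 were called lower and 1 higher, with sums of 9.6 to 10.2 in controls and 7.0 to 7.3 in HADA. For B cell markers 7 of 7 were called higher, with sums of 16.3, 12.1 and 2.0 in controls and 40.1 to 43.5 in HADA. For T cell markers 4 of 13 were called higher and 0 lower, with sums of 13.4 to 14.6 and 19.3 to 19.7. After division by the background the calls were 6 lower for neutrophil markers, 3 lower and 1 higher for monocyte, 7 higher for B cell and 6 higher for T cell markers, and the monocyte sums overlapped. On that scale 31% of all shared regions were called higher and 18.3% lower. On ranks of the fold, 1 neutrophil and 1 T cell region were called higher and none of the B cell or monocyte regions. There 6.57% of all shared regions were called higher and 4.79% lower.

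For NK cell markers 0 of 1 shared region was called (limma adjusted p = 0.347 at Prf1, called higher after division by the background), with sums of 0.4 to 1.2 in controls and 1.1 to 2.2 in HADA, and Klra8 and Klri2 had no peak in any library. The other markers without a peak in at least 1 library were Ncr1, Klrb1c, Eomes, Gzma and Klre1 of NK cells, Cd79a, Cd22 and Blk of B cells, Cd3g and Cd8a of T cells, Ly6g and Retnlg of neutrophils, and Ccr2 and F13a1 of monocytes. For housekeeping genes 1 of 12 shared regions was called higher (8.33%, beside 17.9% of all shared regions) and 0 lower. After division by the background 3 were called higher (25%, beside 31%), and without control 3 the count was 0. In such a mixture, fewer cells of a type and less open chromatin per cell cannot be told apart. The part of the cell makeup in the lower inhibitor and target regions was not tested.

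**Figure D4:**
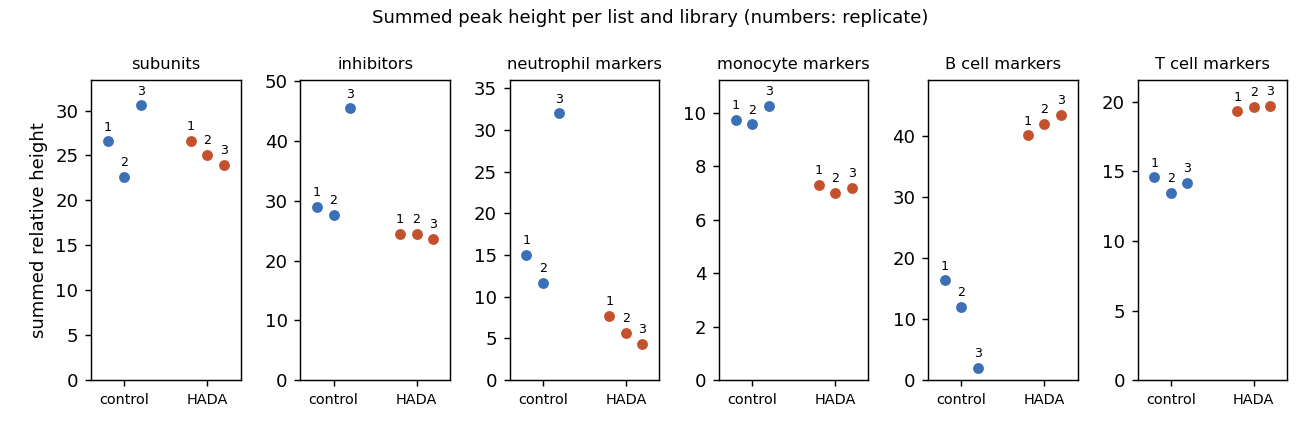
Summed relative height of all regions of each list in each library, with separate vertical axes that start at 0 and the replicate number above each point. On this scale the inhibitors, neutrophil and monocyte markers were lower in all HADA than in all control libraries, the B and T cell markers higher, and the subunits overlapped. Divided by the background instead, the inhibitor and monocyte sums overlapped.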

How the data were processed

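The data were 6 ATAC-seq peak lists, 3 control and 3 HADA, grouped by the labels. The authors used Trimmomatic for trimming, Bowtie2 for alignment to GRCm39, Picard for removal of duplicates and MACS2 for peaks, library by library. The options of MACS2, including an offset for Tn5, are not given in the sources used here. The deposited lists give a score, a fold enrichment as a ratio over the local background, and a −log10 p-value and q-value per peak. Pileup at the summit and local background were computed from these fold and −log10 p-values under the standard formulas of MACS2, which the sources do not state, and a whole-number pileup that returned both values was found for 100% of peaks.

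Genes came from the GENCODE annotation of GRCm39. limma 3.58.1 in R 4.3.3 compared log2 pileups, centred on each library's median shared region, over 23970 regions, with Benjamini-Hochberg adjustment. Peak positions, sequence and figures were handled in Python 3.11.15 with numpy 2.4.6, pandas 2.3.3, scipy 1.17.1 and matplotlib 3.10.9. Named were all 10 members, with their tallest region within 3 kb of a start, each called region and each region in 3 libraries of 1 group and 0 of the other. For each other list, the 3 genes with the smallest limma p at their tallest start region were named, except 1 that is not reported here, and Chuk, Ikbkb, Tnf and Icam1 were added after their values were seen. The 50 bases around each member summit occurred once in the genome. The members and lists were chosen with earlier results of these data known. Depth is known only through the background pileup; total reads were not used here. The binomial interval of the κB share covers counting error only and treats regions of the same gene as independent. limma's intervals reflect the spread between libraries.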

Additional observations from a re-analysis of the deposited data

How the results depend on the processing

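The alternatives were ranks of the authors' fold, scaling by the background, an intensity trend in limma, a −log10 q of at least 5, summits within 250 bp chained, a replicate block and leaving out each library. Nfkbia 2 was called in all 12 alternatives, at −1.34 on fold ranks and with log2 differences between −1.03 and −1.59 in the others. The call of Nfkbiz 2 was lost on fold ranks, under background scaling (log2 difference −0.61, adjusted p = 0.0794) and without each HADA library in turn (adjusted p = 0.0626, 0.0933 and 0.0971), and that of Bcl3 1 on fold ranks (−0.65, adjusted p = 0.0725) and without HADA 2 (adjusted p = 0.057). Inhibitor regions called lower, 3 as reported, numbered 1 on fold ranks, 2 under background scaling, 1 with chained summits, where the Nfkbiz and Bcl3 regions had no value, and 1 to 3 with a library left out. Inhibitor regions called higher were 1 on fold ranks, subunit regions called higher 1 under background scaling (Nfkb1 10, 0.70), and subunit regions called lower 1 with the trend and 0 to 1 with a library left out. Start regions called, 1 as reported, were 0 under background scaling and with chained summits, 2 with the trend and 0 to 2 with a library left out. Member regions in HADA only were 1 to 3 with a library left out, 3 without control 1 and 2 without HADA 2 or HADA 3, and those in control only stayed at 0. Over all shared regions 4291 were called higher and 5769 lower (42.7% higher). These were 1574 and 1147 on fold ranks (57.8% higher), 7432 and 4396 under background scaling (62.8% higher), and 737 to 4810 and 2021 to 5907 with a library left out, lowest without HADA 2 (26.7% higher). Signs turned on fold ranks at Nfkb1 1 (−0.034), Relb 1 (−0.054), Nfkbia 1 (0.59) and Bcl3 2 (0.36). They turned under background scaling at Nfkb1 3 (0.27), Rel 1 (0.0684), Rela (0.27), Nfkbia 1 (0.27), Tnfaip3 1 (0.18) and Bcl3 2 (0.0073). With a library left out they turned at Nfkb1 3 without control 1 (range −0.22 to 0.0396), at Nfkb1 10 without control 3 (−0.0048 to 0.49) and at Nfkbia 1 without control 3 (−0.24 to 0.018). Of these, Nfkbia 1 on fold ranks passed the threshold. The cause of these changes was not tested. Of 200 values of the 17 shared member regions under the alternatives, 177 kept their sign and side of the threshold.

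The replicate numbers did not pair the libraries: deviations from the group mean of same-numbered libraries correlated at −0.08, 0.08 and −0.38. With the replicate block, 2991 shared regions were called higher and 5660 lower (34.6% higher), and inhibitor regions called lower stayed at 3. The share of member regions with a κB match was 13.3% within 50 bp, 18.5% at the stricter q and 21.6% with chained summits. A peak list shows no value below its threshold, so the 13 member regions without a peak in every library had no test, and the lowest called pileup was 7 to 9.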
